A study of Homo sapiens with 17 samples.

Results

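The genes described here encode the core of the complexes that form beneath death receptors: FADD, CASP8, CASP10, CFLAR, TRADD, RIPK1, RIPK3 and MLKL. They were chosen by symbol, and all 8 were found once each among the 58870 genes of the deposited count table. The RNA came from the established human breast cancer line MDA-MB-231, of the triple-negative class, which the labels call mesenchymal and basal B. The cells were grown in RPMI with serum and received TRAIL, a death receptor ligand of the TNF family, at 45 nM, a dose set low so that living cells would be sampled. The 6 groups were cells taken 0, 1, 3, 6, 12 and 24 h after TRAIL, with 3 libraries each except for 1 h, where 2 were analysed here. All 17 libraries carry the same treatment label, including those at 0 h, and none is labelled as untreated at a later time. Time with TRAIL and time in culture therefore cannot be told apart. The labels do not say that the replicates of a time were separate cultures, so the p-values measure the spread between these libraries, which may be technical. In bulk RNA, fewer cells with a transcript and less transcript per cell cannot be told apart either.

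When TRAIL binds its receptors, the adaptor FADD is drawn to the receptor tail and recruits caspase 8 and caspase 10 through death effector domains. The CFLAR protein, also called cFLIP, is a caspase 8 relative that joins the same filament, and its level relative to caspase 8 is known to set how readily caspase 8 is activated. TRADD and the kinase RIPK1 serve in complexes that can signal to NF-kB or to death, and RIPK3 and MLKL carry out necroptosis where caspase 8 is inactive.

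FADD (ENSG00000168040) lies at chr11:70203163-70207390 on the plus strand. CFLAR (ENSG00000003402, chr2:201116104-201176687), CASP10 (ENSG00000003400, chr2:201182881-201229406) and CASP8 (ENSG00000064012, chr2:201233443-201287711) follow each other on the plus strand of chromosome 2. The gaps between them are 6194 bp, from CFLAR to CASP10, and 4037 bp, from CASP10 to CASP8. TRADD (ENSG00000102871, chr16:67154180-67160298) and MLKL (ENSG00000168404, chr16:74671855-74700960) are on the minus strand of chromosome 16. RIPK1 (ENSG00000137275) is at chr6:3063991-3115187 on the plus strand, and RIPK3 (ENSG00000129465) is at chr14:24336021-24340045 on the minus strand. All are protein-coding, and these positions are those of GENCODE 29 on GRCh38. FADD has 1 annotated transcript and CFLAR has 25.

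The start regions of the members were searched for 2 motifs on both strands, the NF-kB consensus by name and the core of the interferon-stimulated response element, which is GAAA, any 2 bases and GAAA again. The windows are RefSeq's on GRCh38.p14, from 250 bases before a start to 50 after it, and 5 of the 8 members matched by symbol: FADD and MLKL with 1 window each, CASP8 and RIPK1 with 3 and CFLAR with 4. The NF-kB consensus was found in 1 of the 4 CFLAR windows and in 5.91% of all 35116 windows of 300 bases. The interferon core was found at 1 place in CASP8 and 1 place in RIPK1, on the strand opposite to the gene, and in 3.57% of all windows. The place in RIPK1 lay in more than 1 of its windows. Counted by gene, 7.09% of 27305 genes had a match to the NF-kB consensus and 4.38% to the interferon core. A gene with more windows has more chances of a match. The sites are shown because they are the only matches in the members' windows, in 3 genes that changed over all times. Each stretch is given on the gene's strand, 5′ to 3′, with the match in capitals:
CFLAR, chr2:201118609-201118638: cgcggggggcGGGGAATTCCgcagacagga
CASP8, chr2:201233450-201233479: gagtttttggTTTCTGTTTCaccttgtgtc
RIPK1, chr6:3068301-3068330: cgcgcggaggTTTCGGTTTCctcttttacg
All 3 stretches lie inside the gene models given above, near RefSeq starts downstream of the first GENCODE base. The matches are letters in these windows only, and binding was not measured.

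Total counts per library ran from 13731520 to 19234924. Levels are in CPM, a gene's share of the library's counts after TMM scaling. The mesenchymal marker VIM was at 2490 to 3720 CPM, while ESR1 had at most 2 counts, PGR at most 1, CDH1 at most 16 and CD3E 0 in any library. Other luminal and epithelial markers were present, with KRT18 at 522 to 931 CPM, ERBB2 at 56.4 to 70.9 CPM and EPCAM at 13.1 to 19.3 CPM. Of the other blood and endothelial markers, PECAM1 reached 68 counts and CD14 reached 32. Replicates 2 and 3 at 6 h (a mean chi-square of 1.55 per gene, where sampling noise gives about 1) and at 24 h (1.68) were nearer to each other than all other replicate pairs (3.86 to 14.6). Libraries also differed in how levels depended on transcript length. The slope of a library's log2 deviation per doubling of the longest transcript ran from -0.136 (3 h, replicate 2) to 0.134 (24 h, replicate 2). It was below 0 in all libraries at 0, 1 and 3 h and above 0 in all libraries at 6 and 24 h. The mitochondrial share of counts differed too, at 7.65% to 9.71% at 1 and 3 h and at 3.66% to 5.45% at 6 and 24 h. The 0 h libraries were at 8.37%, 5.53% and 6.36% and the 12 h libraries at 6.8%, 5.01% and 5.34%. The part of this share in the results was not tested. For CFLAR and TRADD, fold changes are also given with the length trend removed. For the other members that correction is among the alternatives, and its values are given only in part. All other genes named are given as counted only.

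The range over time was narrow. Among the 7 members that passed the filter on low counts, the highest time mean was between 1.23 times (CASP8) and 1.62 times (MLKL) the lowest. RIPK3 did not pass. Per kilobase of merged exon, over all libraries, FADD was at 31.9 ± 4.10 CPM (SD, n = 17) and RIPK1 at 13.3 ± 1.52. CASP8 (3.89 ± 0.304), TRADD (3.81 ± 0.386), CFLAR (3.23 ± 0.386) and MLKL (2.32 ± 0.416) came next, then CASP10 (0.624 ± 0.118) and RIPK3 (0.0726 ± 0.0508). This order depends on the gene model in part. With the longest transcript as the length, CASP8 was at 9.63, TRADD at 5.21 and CFLAR at 4.96 CPM per kilobase.

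**Figure D1:**
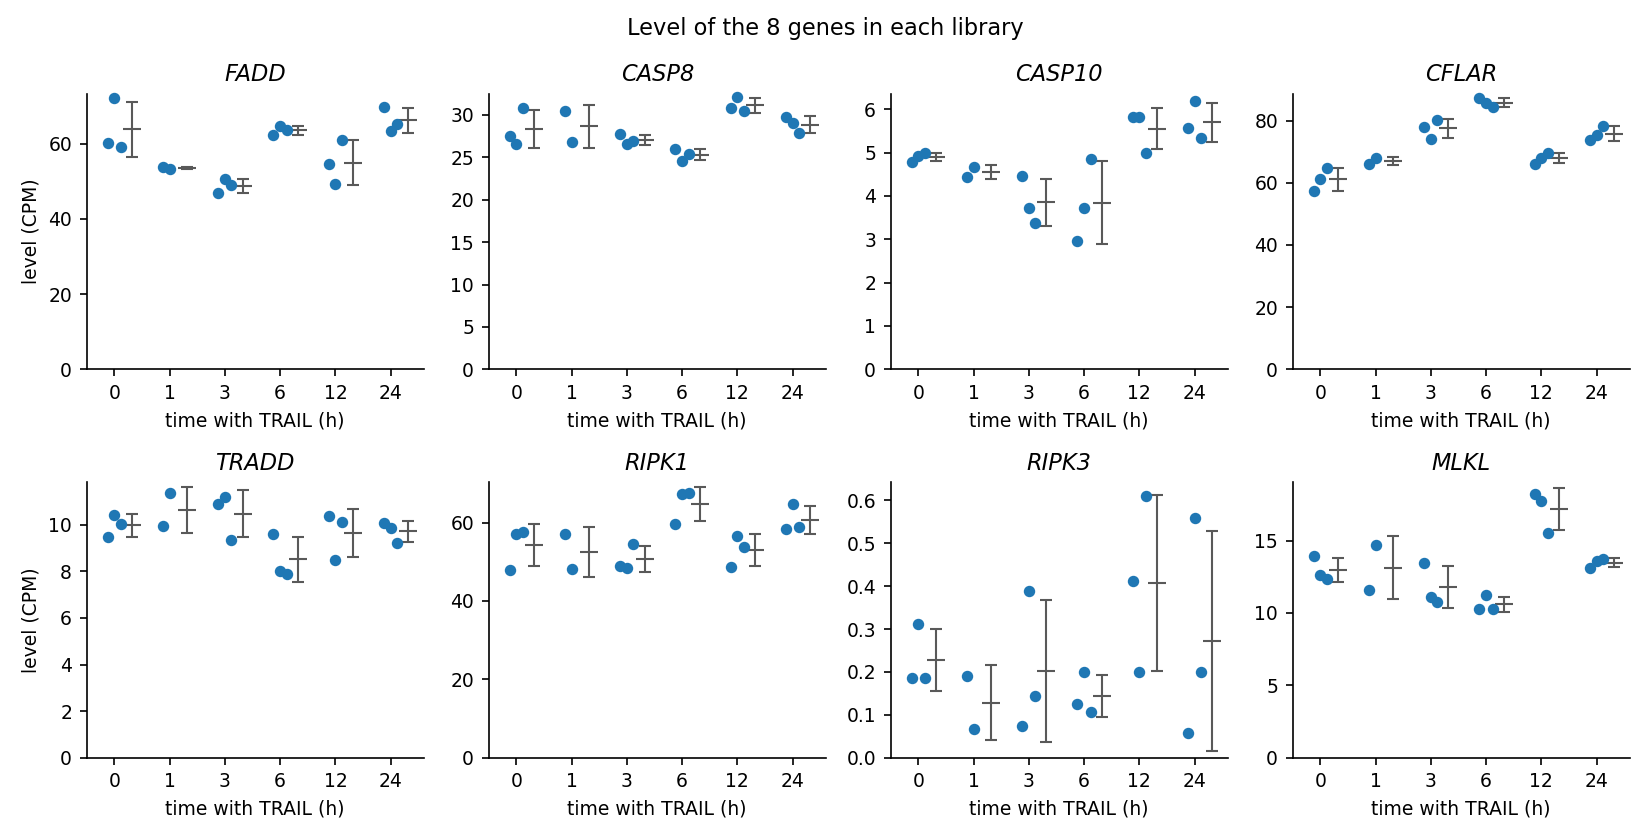
Level of each gene (y axis, CPM, from 0) in each library (points) against time with TRAIL (x axis, hours, evenly spaced categories), with the mean and SD of the libraries beside them (3 libraries, 2 at 1 h). CFLAR is highest at 6 h, FADD is lowest at 3 h and MLKL is highest at 12 h, while RIPK3 stays below 0.62 CPM.

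In the test over all times 6 of the 7 members tested changed, where 64.2% of the 15365 genes tested did. The adjusted p-values (edgeR's quasi-likelihood test, Benjamini-Hochberg over all genes tested, as throughout) were 1.07e-05 for CFLAR, 0.000268 for MLKL, 0.000548 for FADD, 0.00885 for RIPK1, 0.00968 for CASP10 and 0.0253 for CASP8. TRADD, at 0.174, did not pass. With replicates 2 and 3 averaged at 6 and 24 h, CASP8 and RIPK1 were not called. The CASP8 call also ended with no filter, without replicate 2 or 3 at 6 h and without replicate 1 or 2 at 12 h. Against 0 h, no member was called at 1 h, where 0.312% of all genes were. There, 2 members (FADD and CFLAR) had an unadjusted p below 0.05, and DESeq2 and limma-voom called 0 members too. At 3 h 2 of 7 were called (17.7% of all genes), at 6 h 3 of 7 (30.1%), at 12 h 1 of 7 (12.4%) and at 24 h 1 of 7 (35.1%). These counts were near the background at 3, 6 and 12 h and below it at 24 h. At 6 h the log2 fold changes of the 7 members had their median at -0.16 and those of all genes tested at -0.02. At 24 h the medians were 0.05 and 0.00.

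Between neighbouring times, no member was called from 1 to 3 h (5.73% of all genes). CFLAR alone had an unadjusted p below 0.05 there, and DESeq2 called CFLAR. From 3 to 6 h 4 of 7 were called (43.2%), from 6 to 12 h 5 of 7 (20.6%) and from 12 to 24 h 2 of 7 (12%). The step from 6 to 12 h held the most calls and went both ways, with CASP8, CASP10 and MLKL higher and CFLAR and RIPK1 lower at 12 h (8.7% of all genes were called higher and 11.9% lower). The median absolute log2 fold change in that step was 0.30 for the 7 members and 0.18 for all genes. In that step the libraries did not overlap for 6 of the 7 members, against 37.6% of all genes tested.

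**Figure D2:**
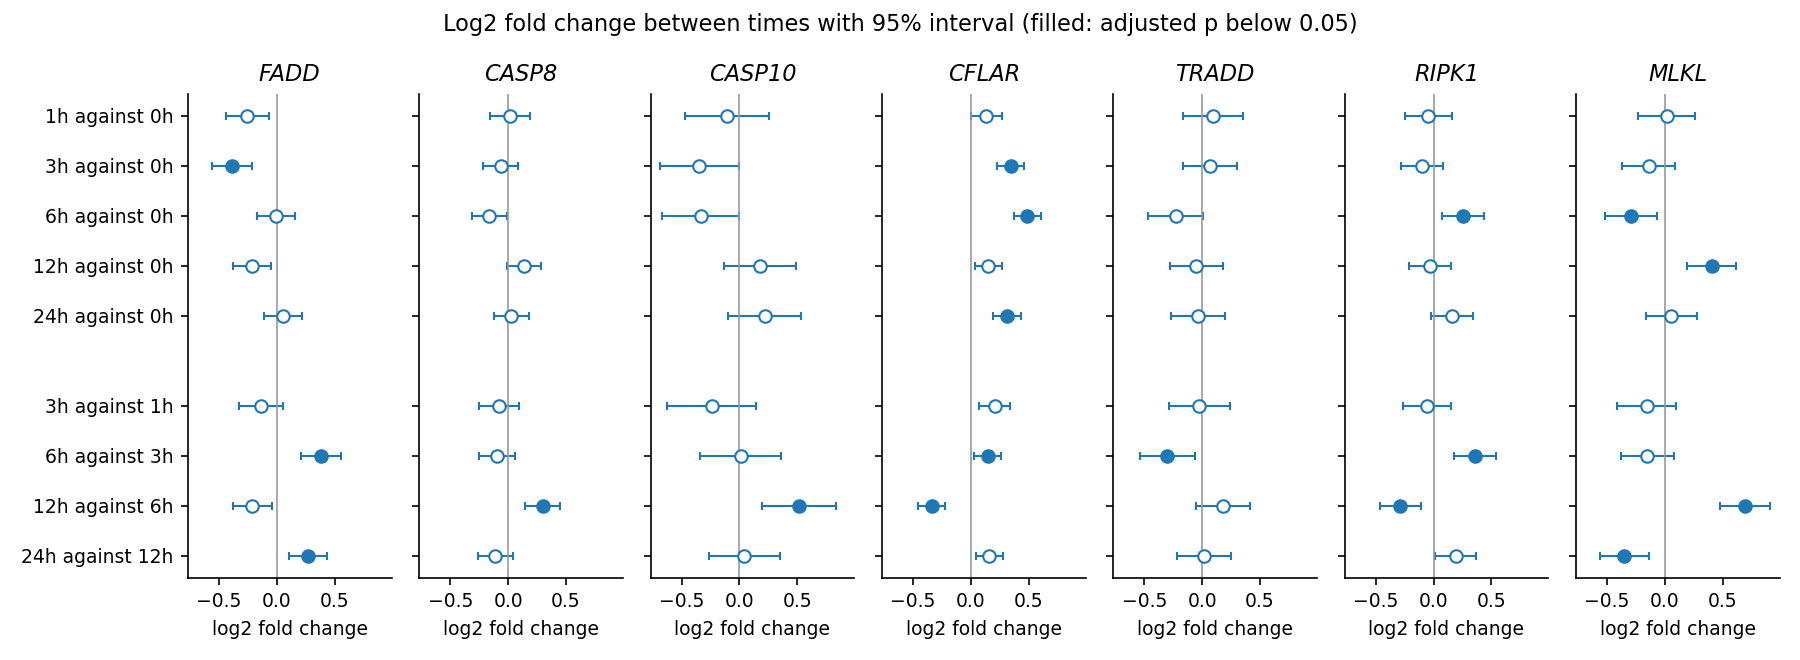
Log2 fold change (x axis) of the 7 genes tested in each comparison (y axis, later against earlier time), with its 95% interval from the fit of all 17 libraries. Filled points passed an adjusted p of 0.05. CFLAR lies above 0 in all 5 comparisons with 0 h, and CASP8, CASP10 and MLKL lie opposite to CFLAR and RIPK1 in the step from 6 to 12 h.

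FADD, the adaptor, dipped at 3 h. Its 0 h libraries stood at 60.2, 72.1 and 59.1 CPM and its 3 h libraries at 46.9, 50.6 and 48.9 CPM. The 2 libraries at 1 h lay between, at 53.7 and 53.3 CPM. The groups at 0 and 3 h did not overlap. FADD fell by 0.39 on the log2 scale at 3 h (SE 0.0814, adjusted p = 0.003). At 6 h the libraries were back at 62.4, 64.7 and 63.6 CPM, all above those at 3 h. The rise from 3 to 6 h was 0.38 (SE 0.0814, adjusted p = 0.000988). Both calls held in all 20 alternatives, with log2 fold changes of -0.46 to -0.29 for the fall and 0.32 to 0.57 for the rise. At 12 h FADD stood at 54.5, 49.3 and 61.1 CPM and at 24 h at 69.8, 63.5 and 65.3 CPM. The groups were apart, though the nearest libraries differed little. The rise from 12 to 24 h was 0.27 (SE 0.0795, adjusted p = 0.0336). That call ended when either of replicates 1 and 2 at 12 h or any replicate at 24 h was left out, with log2 fold changes from 0.19 to 0.30 and adjusted p of 0.0681 to 0.13. It also ended with upper-quartile scaling, only the groups compared or averaged replicates (adjusted p of 0.0528 to 0.0992). The fall of FADD from 6 to 12 h was not called (-0.21, SE 0.0796, adjusted p = 0.0673). It was called with the length and GC trend removed by either transcript length and without replicate 3 at 12 h.

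The FADD exons share 1011 bp with AP000879.1, an annotated gene on the opposite strand, and the deposited FADD counts were fractional in all 17 libraries. AP000879.1 held 38 to 212 counts per library, or 3.74% to 19.5% of the counts of both genes. At 0 h it stood at 5.91, 5.98 and 5.29 CPM and at 3 h at 8.60, 10.3 and 11.8 CPM, higher in every 3 h library. It rose by 0.84 at 3 h (SE 0.251, adjusted p = 0.0308), the direction opposite to FADD, and fell by 0.90 from 12 to 24 h (SE 0.252, adjusted p = 0.0305). The strand setting of the counting is not given in the sources used here, so reads of the pair may have been split between them. With both genes summed, the 0 h libraries stood at 66.1, 78.1 and 64.3 CPM and the 3 h libraries at 55.5, 60.8 and 60.7 CPM. The summed level was thus also lower in every 3 h library than in every 0 h library, by a smaller margin than FADD alone. At 6 h the sums were 69.9, 73.4 and 70.6 CPM, all above those at 3 h. At 12 h they were 63.6, 60 and 69 CPM and at 24 h 77.4, 67.9 and 67.9 CPM. The sums at 12 and 24 h thus overlapped, unlike FADD alone.

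**Figure D3:**
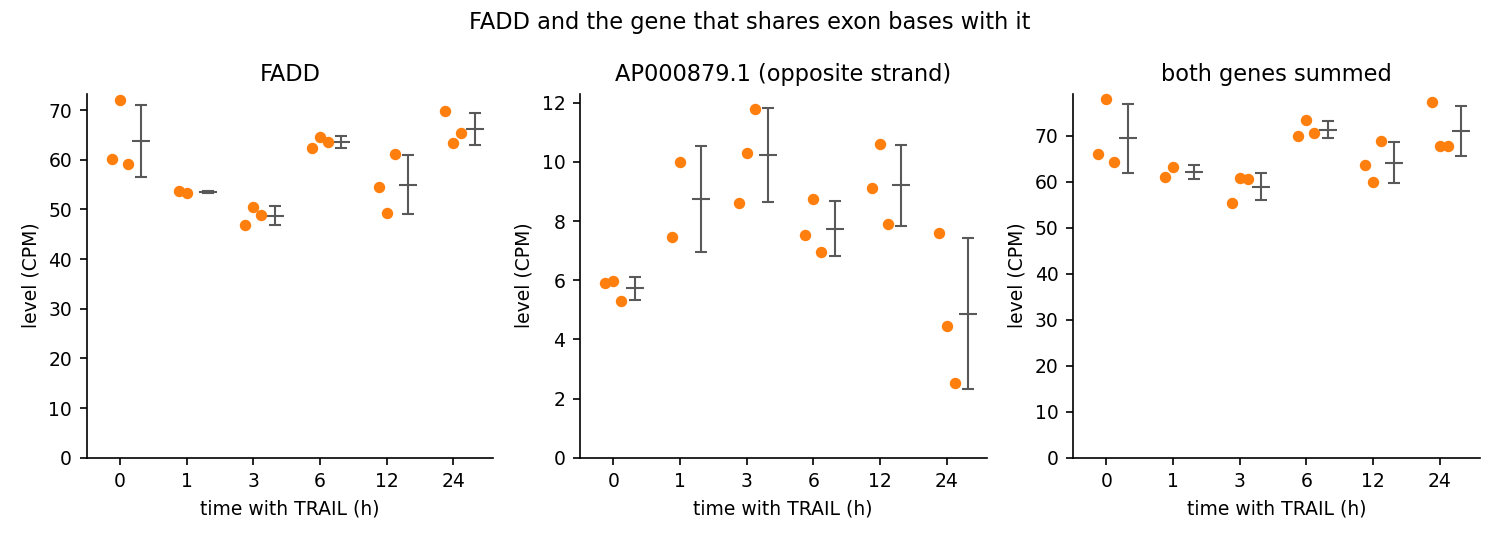
Level (y axis, CPM, from 0) of FADD, of AP000879.1 on the opposite strand and of their sum in each library (points) against time with TRAIL (x axis, hours), with mean and SD. FADD is lowest at 3 h, where AP000879.1 reaches 11.8 CPM, and the sum at 3 h lies between 55.5 and 60.8 CPM, below the 0 h libraries.

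CASP8 encodes the initiator caspase that FADD recruits, and its time means had the narrowest range of the members tested. At 0 h it stood at 27.6, 26.6 and 30.9 CPM, at 1 h at 30.4 and 26.9 CPM and at 3 h at 27.7, 26.6 and 26.9 CPM. These 3 times overlapped. At 6 h the libraries were at 26.0, 24.6 and 25.4 CPM, at 12 h at 30.8, 32.2 and 30.5 CPM, and at 24 h at 29.7, 29 and 27.8 CPM. Every 12 h library was above every 6 h library. CASP8 rose by 0.30 from 6 to 12 h (SE 0.0722, adjusted p = 0.00655), in all 20 alternatives too (0.23 to 0.37). Against 0 h no time was called for CASP8. The intervals of its log2 fold change were -0.22 to 0.09 at 3 h, -0.31 to -0.01 at 6 h, -0.01 to 0.29 at 12 h and -0.12 to 0.18 at 24 h. At 6 h it was called lower with upper-quartile scaling and with the length and GC trend removed by either transcript length.

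CASP10, the other initiator caspase of this complex, was the least abundant of the members tested, with 47 to 116 counts per library. It stood at 4.79, 4.92 and 4.98 CPM at 0 h and at 4.43 and 4.67 CPM at 1 h. At 3 h the libraries were at 4.45, 3.73 and 3.37 CPM and at 6 h at 2.97, 3.71 and 4.86 CPM, the widest spread of any time. At 12 h they stood at 5.83, 5.82 and 5.00 CPM and at 24 h at 5.56, 6.20 and 5.34 CPM. All 12 h libraries were above all 6 h libraries, the nearest being 5.00 and 4.86 CPM. CASP10 rose by 0.52 from 6 to 12 h (SE 0.154, adjusted p = 0.023). The call ended without replicate 1 or 2 at 6 h or replicate 1 or 2 at 12 h, with log2 fold changes of 0.36 to 0.49 and adjusted p of 0.0696 to 0.103. Against 0 h no time was called for CASP10. At 6 h its log2 fold change was -0.34 (SE 0.158, adjusted p = 0.113). It was called lower there with the longest-transcript correction (-0.46, adjusted p = 0.025) and without replicate 3 at 6 h (-0.55, adjusted p = 0.0264). With the median length it was not called (-0.34, adjusted p = 0.107).

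CFLAR, which encodes the caspase 8 inhibitor and regulator cFLIP, had the lowest p-value of the members over all times. Its 0 h libraries stood at 57.4, 61.2 and 64.6 CPM and those at 1 h at 66.1 and 68.0 CPM. At 3 h they were at 78.0, 74.2 and 80.2 CPM, and at 6 h at 87.2, 85.5 and 84.4 CPM. All libraries from 1 h on were above all 0 h libraries, and the 6 h libraries were the 3 highest of the 17. CFLAR rose by 0.34 at 3 h (SE 0.0572, adjusted p = 0.00041) and by 0.49 at 6 h (SE 0.0566, adjusted p = 6.26e-06). Both calls held in all 20 alternatives, with log2 fold changes of 0.27 to 0.39 at 3 h and 0.28 to 0.53 at 6 h. At 12 h the libraries had come down to 66.2, 67.9 and 69.4 CPM. That fall from 6 h was 0.34 (SE 0.0561, adjusted p = 0.000343) and held in all 20 alternatives, where the log2 fold change was -0.39 to -0.26. CFLAR at 12 h was not called against 0 h (log2 fold change 0.15, SE 0.0569, adjusted p = 0.0857). At 24 h it stood at 73.7, 75.5 and 78.3 CPM, again above every 0 h library, by 0.31 on the log2 scale (SE 0.0569, adjusted p = 0.000479). The levels thus ran up to 6 h, down at 12 h and stood higher again at 24 h, although 24 h against 12 h was not called (0.16, SE 0.0564, adjusted p = 0.0672).

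CFLAR is the member with the longest annotated exons (22529 bp merged, 14672 bp in the longest transcript, 963 bp in the median one), and its counts were fractional in all 17 libraries. With the length and GC trend of each library removed by the longest transcript, CFLAR was at 0.39 at 3 h, 0.28 at 6 h (adjusted p = 0.0017) and 0.06 at 24 h, where the call ended (adjusted p = 0.513). With the median transcript length, a choice made after seeing the data, it was at 0.35, 0.49 and 0.28 (adjusted p = 0.000332 at 24 h). The call from 3 to 6 h (0.15, SE 0.0563, adjusted p = 0.0426) reversed with the longest transcript (-0.10, adjusted p = 0.188) and stayed at 0.14 with the median one. It also ended in 5 other settings, and without replicate 1 or 2 at 3 h or any replicate at 6 h (0.11 to 0.16, adjusted p of 0.0739 to 0.168). Which transcripts of CFLAR the cells express was not tested, since the table holds gene totals only.

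**Figure D4:**
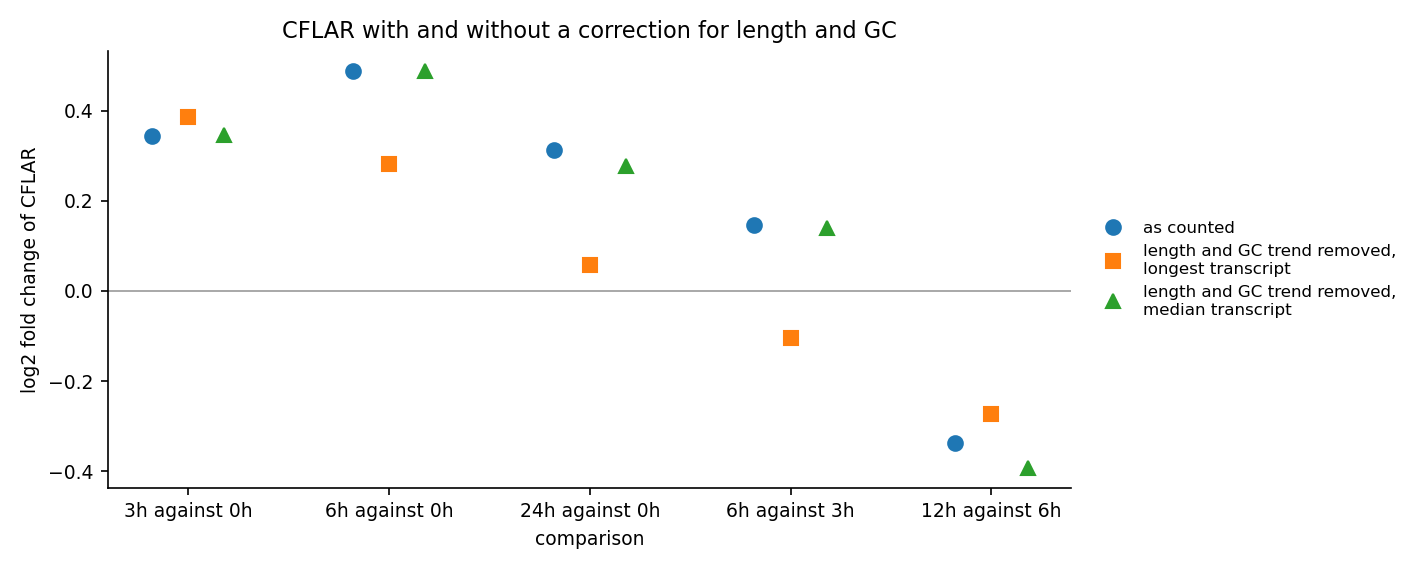
Log2 fold change of CFLAR (y axis) in 5 comparisons (x axis) as counted and with the length and GC trend of each library removed, by the longest or the median annotated transcript (points, no error shown). The 3 h and 12 h comparisons stay close together, while 24 h against 0 h runs from 0.06 to 0.31 and 6 h against 3 h from -0.10 to 0.15.

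The count ratio of CFLAR to CASP8 within a library, in which depth and scaling cancel, was 2.08, 2.30 and 2.09 at 0 h and 2.17 and 2.53 at 1 h. The 3 h libraries gave 2.81, 2.78 and 2.98, and the 6 h libraries gave 3.36, 3.47 and 3.32. By 12 h it was back at 2.15, 2.11 and 2.28, and the last libraries, at 24 h, gave 2.48, 2.60 and 2.81. The 3, 6 and 24 h libraries were all above the 0 h libraries, and the 12 h libraries lay within their range. The mean ratio was 2.16 ± 0.124 (SD, n = 3) at 0 h, 3.38 ± 0.0803 at 6 h and 2.18 ± 0.0870 at 12 h. CFLAR over FADD was highest earlier, at 1.59 ± 0.108 at 3 h against 0.966 ± 0.123 at 0 h. These ratios are of counts and not of molecules, they carry the length trend given above, and they were not tested.

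**Figure D5:**
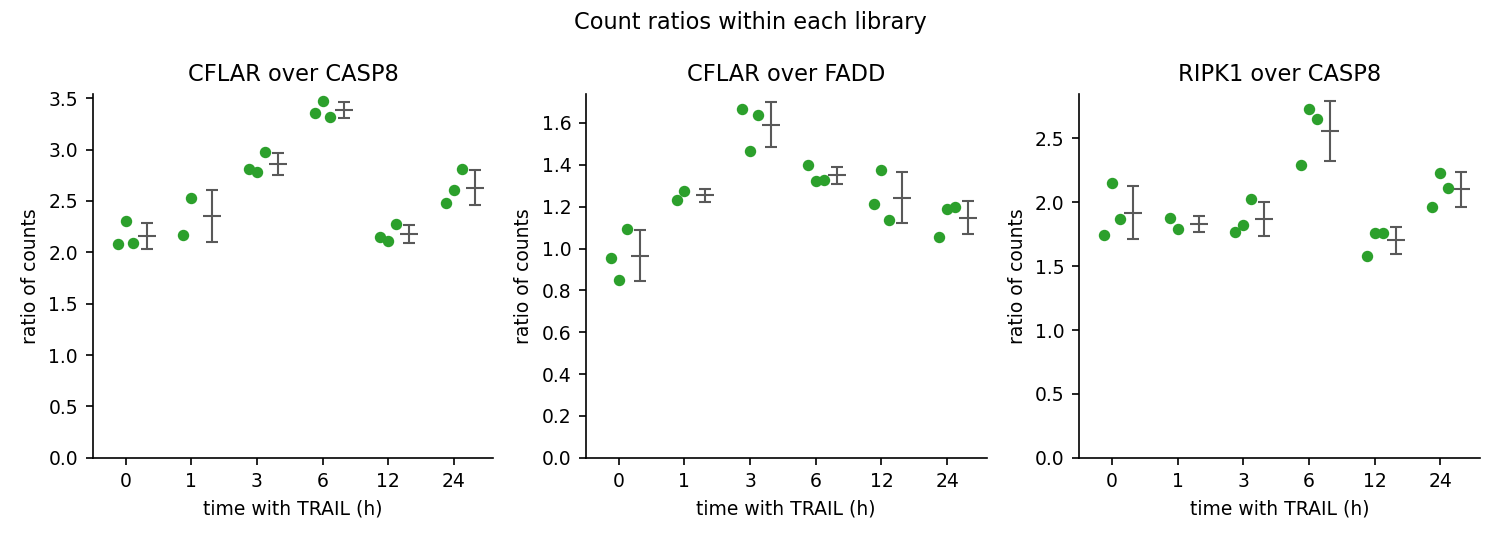
Ratio of counts (y axis, from 0) of CFLAR to CASP8, CFLAR to FADD and RIPK1 to CASP8 in each library (points) against time with TRAIL (x axis, hours), with mean and SD. CFLAR over CASP8 and RIPK1 over CASP8 have their highest means at 6 h (3.38 and 2.56), and CFLAR over FADD at 3 h (1.59).

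TRADD, the adaptor that links the TNF receptor to RIPK1 and FADD, was not called over all times. Its mean was 9.96 ± 0.476 CPM (SD, n = 3) in the 0 h libraries and 10.6 ± 0.986 (n = 2) in those of 1 h, and 9.65 ± 1.02 and 9.71 ± 0.449 in the 12 and 24 h libraries. The 3 h libraries were at 10.9, 11.2 and 9.32 CPM and the 6 h libraries at 9.61, 8.03 and 7.88 CPM, which overlap. TRADD fell by 0.30 from 3 to 6 h (SE 0.114, adjusted p = 0.0393). The length slope turned from negative to positive in the same step, and with that trend removed the value was -0.06 (adjusted p = 0.689), or -0.10 by the median length (adjusted p = 0.402). The call also ended in 5 of the other settings and without replicate 1 or 2 at 3 h or replicate 2 or 3 at 6 h (-0.27 to -0.25, adjusted p of 0.113 to 0.154). FBXL8 on the opposite strand shares 126 bp of exon with TRADD, whose deposited counts were whole in every library. FBXL8 held 47 to 112 counts and fell by 0.87 in the same step (SE 0.185, adjusted p = 0.000986).

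RIPK1, the kinase at the branch between NF-kB signalling and death, peaked at 6 h. Its 3 h libraries stood at 48.9, 48.5 and 54.4 CPM and its 6 h libraries at 59.6, 67.2 and 67.4 CPM, with no overlap. RIPK1 rose by 0.35 from 3 to 6 h (SE 0.0873, adjusted p = 0.00295), in all 20 alternatives too (0.27 to 0.43). At 0 h it had stood at 48.0, 57.2 and 57.6 CPM and at 1 h at 57.1 and 48.1 CPM. The rise from 0 to 6 h was 0.25 (SE 0.0860, adjusted p = 0.0307). It was called neither without replicate 1 at 0 h (0.17, adjusted p = 0.175), nor without replicate 2 (0.23, 0.108) or 3 (0.22, 0.119) at 6 h. It ended too in 4 other settings, among them the closely alike replicates averaged and the median-length correction (0.17 to 0.26, adjusted p of 0.052 to 0.14). At 12 h RIPK1 was at 48.7, 56.7 and 53.6 CPM, all below the 6 h libraries, and at 24 h at 58.3, 64.7 and 58.8 CPM. RIPK1 fell by 0.29 from 6 to 12 h (SE 0.0857, adjusted p = 0.0233). That call ended without replicate 2 or 3 at 6 h or replicate 1 or 3 at 12 h (-0.29 to -0.24, adjusted p of 0.0543 to 0.0986), and with upper-quartile scaling, library size only or averaged replicates (adjusted p of 0.062 to 0.107). RIPK1 over CASP8 was 2.56 ± 0.232 at 6 h (SD, n = 3), 1.87 ± 0.137 at 3 h and 1.70 ± 0.104 at 12 h.

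RIPK3, the kinase that phosphorylates MLKL, was barely detected. The 0 h libraries held 3, 5 and 3 counts, the 1 h libraries 3 and 1, and the 3 h libraries 1, 5 and 2. The 6 h libraries held 2, 3 and 2 counts, the 12 h libraries 6, 4 and 11, and the 24 h libraries 1, 9 and 3. These are 64 counts in all 17 libraries together, and the libraries of the highest time, 12 h, overlap those of 24 h. They lie above those of 6 h, the nearest being 0.201 and 0.199 CPM, and 37.6% of all genes tested were apart in that step. RIPK3 did not pass the filter on low counts, so a difference between times was not tested at this depth.

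MLKL, which forms the pore of necroptosis, moved the most between neighbouring times. It stood at 13.9, 12.6 and 12.3 CPM at 0 h, at 11.6 and 14.7 CPM at 1 h and at 13.4, 11.1 and 10.8 CPM at 3 h. At 6 h the libraries were at 10.3, 11.2 and 10.3 CPM, and at 12 h at 18.2, 17.8 and 15.5 CPM. Every 12 h library exceeded every other library of the 17. MLKL rose by 0.70 from 6 to 12 h (SE 0.104, adjusted p = 0.000123), in all 20 alternatives too (0.65 to 0.77). Against 0 h it was lower at 6 h (-0.29, SE 0.107, adjusted p = 0.0458) and higher at 12 h (0.40, SE 0.102, adjusted p = 0.0137). The 6 h call ended when any 1 of the 3 libraries at 0 h or the 3 at 6 h was left out (-0.33 to -0.24, adjusted p of 0.0517 to 0.176), and with no filter, DESeq2 or averaged replicates (adjusted p of 0.0671 to 0.0937). The 12 h call ended without replicate 2 or 3 at 0 h or replicate 1 or 2 at 12 h (0.36 to 0.39, adjusted p of 0.0537 to 0.0655). At 24 h the libraries were at 13.1, 13.6 and 13.7 CPM, and MLKL fell by 0.35 from 12 h (SE 0.101, adjusted p = 0.0309). This fall was not called without replicate 1 or 2 at 12 h or any replicate at 24 h (-0.36 to -0.30, adjusted p of 0.0534 to 0.135), nor with averaged replicates (adjusted p = 0.107). The step from 6 to 12 h kept its call without any 1 library.

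The genes whose log2 CPM ran most alike were named by the highest Pearson r over the 17 libraries among 11368 genes. The libraries share time groups, depth and the length trend, so r is a description. For CFLAR they were TRAF1 (0.941), an adaptor bound by TNF receptors, NFKB1 (0.927), which encodes an NF-kB subunit, and ABTB2 (0.917). For RIPK1 they were CRIM1 (0.961), SMAD4 (0.947) and COL12A1 (0.942). FADD ran most like NELFB (0.931), HMGA1 (0.920) and RAB1B (0.912). CASP8 ran most like EBAG9 (0.879), C1GALT1C1 (0.868) and GPX8 (0.853), and CASP10 like ASAP3 (0.889), KRT86 (0.886) and SLC29A3 (0.885). MLKL ran most like SRSF4 (0.867), IK (0.856) and CDC25C (0.854).

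The wider pathway was read from 5 lists with 46 genes, of which 44 were tested. Against 0 h, 1 was called at 1 h (TNFAIP3) and 14 at 3 h (10 higher, 4 lower). The count was 24 at 6 h (20 higher, 4 lower), 14 at 12 h (12 higher, 2 lower) and 29 at 24 h (21 higher, 8 lower). The share was above the background of all genes at each of these times, at 1 h by that 1 gene. The lists were chosen with earlier results of these data known, so the excess is a description. The length trend was not removed from these counts or from the list values below. The median log2 fold change of the 44 was 0.24 at 6 h and 0.26 at 24 h.

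Among 10 tested ligands and receptors, 6 rose and 2 fell at 24 h, where 18% of all genes were called higher and 17.1% lower. TNFSF10, the gene of TRAIL itself, rose by 0.69 (SE 0.109, adjusted p = 0.000194). The decoy receptors TNFRSF10D (0.64, SE 0.0778, adjusted p = 1.14e-05) and TNFRSF10C (1.44, SE 0.425, adjusted p = 0.0129, at most 18 counts in a library) rose too. TNFRSF11B, a soluble receptor, fell by 0.57 (SE 0.166, adjusted p = 0.0117). The receptors that FADD binds after TRAIL are TNFRSF10A and TNFRSF10B. They rose by 0.40 (SE 0.0718, adjusted p = 0.000432) and 0.49 (SE 0.0569, adjusted p = 6.66e-06) at 24 h, and they are named here after their values were seen.

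Among 16 regulators that attach or remove ubiquitin, or act as kinases, around RIPK1, 9 rose at 6 h and 0 fell, where 16.9% of all genes were called higher and 13.2% lower. At 24 h 9 rose and 2 fell, with the background given above for that time. BIRC3, a ubiquitin ligase for RIPK1, rose by 2.04 at 24 h (SE 0.0949, adjusted p = 2.99e-11), more than any member. BIRC2 (0.62, SE 0.0842), its relative, CYLD (0.62, SE 0.0934), a deubiquitinase, and TNFAIP3 (0.67, SE 0.103), the ubiquitin editor A20, rose by less. Their adjusted p-values at 24 h were 3.67e-05, 8.74e-05 and 0.000108. Each of these genes had a larger rise against 0 h at an earlier time. BIRC3 was at 2.22 (SE 0.0953) and TNFAIP3 at 1.57 (SE 0.0983) at 3 h. BIRC2 was at 1.04 (SE 0.0842) and CYLD at 0.69 (SE 0.0931) at 6 h.

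Of 10 genes of caspase 8 substrates and the mitochondrial route, 4 rose and 3 fell at 6 h, where 30.1% of all genes were called. APAF1, the scaffold of the apoptosome, rose by 0.62 (SE 0.128, adjusted p = 0.00172) and BAK1, a pore former of mitochondria, by 0.43 (SE 0.0664, adjusted p = 0.000121). CASP6, an effector caspase, fell by 0.46 (SE 0.0875, adjusted p = 0.000763). The other death effector domain genes held 3 members. At 24 h DEDD2 rose by 0.26 (SE 0.0808, adjusted p = 0.0164) and PEA15, which binds FADD and caspase 8, fell by 0.33 (SE 0.0483, adjusted p = 6.7e-05). Of 5 necrosome partners tested, 1 rose and 1 fell at 24 h, a share near the 35.1% of all genes. They were PPM1B, a phosphatase of RIPK3 (0.27, SE 0.0817, adjusted p = 0.0156), and PGAM5, a mitochondrial phosphatase (-0.17, SE 0.0587, adjusted p = 0.0329). At 3 h and at 6 h 1 partner rose and 1 fell as well, where 17.7% and 30.1% of all genes were called. At both times TICAM1 rose (0.53 at 3 h, SE 0.0954, adjusted p = 0.000834) and TLR3 fell (-1.02 at 3 h, SE 0.171, adjusted p = 0.000427). TICAM1 and TLR3 are named here after their values were seen. ZBP1, a sensor upstream of RIPK3, had at most 2 counts in any library.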

How the data were processed

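The authors deposited 1 table of expected counts per gene, which the file name credits to RSEM. Trimming with cutadapt 1.18, alignment with STAR 2.7.0f and the build hg38 are per the submitters' processing notes. The RSEM version, annotation release and strand setting are not given in the sources used here. The kit was TruSeq Stranded mRNA, read from both ends, per the labels' protocols. Of the values 10.8% were not whole (tolerance 0.005), and they were rounded. Of 58870 genes 58597 matched GENCODE 29 by unversioned identifier.

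Genes were filtered with filterByExpr and scaled by TMM. All 17 libraries entered 1 quasi-likelihood fit (edgeR 4.0.16, R 4.3.3, robust) with a mean per time and no covariate, and Benjamini-Hochberg adjustment over 15365 genes. A call is an adjusted p below 0.05. SE is the log2 fold change over the root of F. The code was tested on simulated data. Alternatives were RLE, upper-quartile and no composition scaling, other filters, DESeq2 1.42.0, limma-voom 3.58.1, non-robust estimation, unrounded counts, 2-group fits, a replicate block, near-identical libraries averaged, length and GC trends removed, and each library left out.

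All members were named. So were, for each member called over all times, the 3 genes most alike (prior count 2, average log2 CPM of at least 2), up to 4 called genes per list with the largest change at the time with most calls, and genes overlapping a member. The values of 1 gene that this rule names are not reported here. The members, lists and rules were chosen with earlier results of these data known.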

Additional observations from a re-analysis of the deposited data

How the results depend on the processing

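The counts of members called over all times and at 1, 3 and 24 h against 0 h stayed within 1.5 times in the alternatives run, although at 24 h the longest-transcript correction ended the CFLAR call and called FADD (0.21, adjusted p = 0.0194). At 6 h against 0 h the 3 calls became 5 with the length and GC trend removed by the longest transcript and 1 with replicates 2 and 3 averaged, and 1 to 3 with a library left out. With library size only, no filter or DESeq2 they became 2. At 12 h the 1 call became 0 to 2 with a library left out. From 1 to 3 h the count went from 0 to 1 with DESeq2 and with either length and GC correction. From 3 to 6 h the 4 calls became 2 with no filter, with the longest-transcript correction, with only the groups compared and with averaged replicates, and 2 to 4 with a library left out. They became 3 with upper-quartile scaling, library size only, a mean count of at least 10, DESeq2 or the median-length correction. From 6 to 12 h the 5 calls became 6 with either length and GC correction, which added FADD as lower. They became 4 with upper-quartile scaling, library size only or averaged replicates, where RIPK1 was lost, and 3 to 5 with a library left out. From 12 to 24 h the 2 calls became 1 with upper-quartile scaling or only the groups compared, 0 with averaged replicates, and 0 to 2 with a library left out. With library size only, DESeq2 or the median-length correction they became 3, with CFLAR added. The cause of these differences was not tested. A fit with a library left out also holds fewer libraries, which cannot be told apart from the loss of that library. Of 45 uncalled log2 fold changes of members, 19 changed sign in at least 1 alternative. CASP8 at 1 h went from 0.02 to -0.029 with library size only, and ran from -0.073 to 0.098 with a library left out. CASP8 at 3 h ran from -0.11 to 0.0017 with a library left out. CASP8 at 24 h was -0.0032 and -0.026 with the longest and the median correction, and -0.017 to 0.089 with a library left out. FADD at 24 h ran from -0.0016 to 0.15 with a library left out. The called CFLAR rise from 3 to 6 h was -0.10 with the longest-transcript correction.

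With the replicate block, 6 members were called over all times and 0, 2, 3, 1 and 1 at 1, 3, 6, 12 and 24 h, then 0, 4, 5 and 2 between neighbouring times, as without it. No pairing of the samples by replicate number was seen, though the labels do not say whether a number marks a shared culture or day. Deviations from the time means correlated at a median r of 0.0108 over 40 pairs of libraries with the same number and -0.00865 over 80 with other numbers. The scalings moved the median of all genes by at most 0.0744 (log2). Depth limits RIPK3 and CASP10 most, at 1 to 11 and 47 to 116 counts per library.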
